A study of Mus musculus with 9 samples.

Results

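Nrf2, encoded by Nfe2l2, is the transcription factor that cells use to answer oxidants and electrophiles. Keap1 holds it in the cytoplasm and feeds it to a ubiquitin ligase until its sensor cysteines are modified; Nrf2 then enters the nucleus, pairs with small Maf proteins and binds antioxidant response elements. Its textbook targets make glutathione, recycle glutathione and thioredoxin with NADPH, detoxify quinones and break down heme, and lung tumours are among the cancers in which the pathway is often mutated.

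The genes described here are 10 members of that pathway: the factor Nfe2l2 and its inhibitor Keap1, the targets Nqo1, Hmox1, Gclc, Gclm, Txnrd1, Srxn1 and Gsr, and the lipid peroxidase Gpx4. They were chosen by gene symbol from the platform annotation, each has 1 feature on the array, and all 10 are among the 19505 genes tested. RNA was profiled by 1-colour whole-transcript array in GFP-labelled 3LL cells, a Lewis lung carcinoma (LLC) line, with C57/BL6 given as the strain. There were 3 samples of GFP-positive cells taken back 7 days after intrapulmonary transplantation (lung), 3 taken back 7 days after subcutaneous transplantation (subcutaneous) and 3 of the cells kept in culture for 7 days (dish). All 3 groups carry the GFP label and no other allele or agent is named for single samples; the series text places the lung samples in "BLM lungs", an abbreviation it leaves unexplained. Whether the 3 samples of a group are separate animals or separate cultures is not stated, so each p-value speaks only to the spread among these samples, which could be technical.

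Values are log2 signals as deposited. The 90th percentile of the negative control probes on each array, 7.20 to 7.73, served as a guide to background, and "above background" means above it. The carcinoma label was checked on 7 epithelial and 6 mesenchymal genes: the keratin gene Krt8 was above background on all 9 arrays (11.7 to 13.9), as were the mesenchymal genes Vim and Cdh2, whereas Epcam and E-cadherin, Cdh1, were above it on 0 of 9. The sorted samples also held signal from markers of other cell types. In a list of 9 alveolar type II genes 6 rose in lung relative to subcutaneous samples, 2 of them between groups both under background. Abca3 averaged 7.91 in lung against 8.44 in subcutaneous samples and was not called. The list mean was 6.76 to 8.50 on the lung arrays against 4.70 to 5.0 on the subcutaneous arrays. The mean of 6 airway secretory genes was 10.31 on lung replicate 3, against 5.38 and 6.36 on lung replicates 1 and 2. Of 6 fibroblast genes, 3 were lower in lung than in subcutaneous samples (Lum, Dcn and Dpt). The list means were 6.36 to 7.00, 8.92 to 9.12 and 5.49 to 5.60 on the lung, subcutaneous and dish arrays. The other 3 genes, Col1a1, Col1a2 and Col3a1, were above background on 0 of 9 arrays. The alveolar type I gene Cldn18 read 8.58, 8.98 and 8.89 on the lung arrays, against 5.26 to 5.88 on the subcutaneous arrays, and 2 of the 5 genes of its list rose in lung relative to subcutaneous samples. Of 11 monocyte and macrophage genes 1 rose in lung relative to each of the other groups, Lyz2, at 9.68, 6.32 and 10.04 on the lung arrays against 5.82 to 6.66 on the subcutaneous arrays, and Cd14 was above background on all 9 arrays. No lymphocyte (6 genes), neutrophil (5) or endothelial (7) marker was above background on any of the 9 arrays. The very long mRNA level, the mean of 25 genes intended as a gauge of RNA quality, was 8.56, 8.76 and 7.62 on lung replicates 1, 2 and 3, against 7.29 to 7.83 on the subcutaneous and 6.95 to 7.28 on the dish arrays. The RNA integrity number was 7.90 to 8.30, 7.50 to 8.60 and 8.40 to 8.60 in lung, subcutaneous and dish samples. Its mean was highest in dish samples (8.50), where the very long mRNA level was lowest. A call lost with that level as a covariate is therefore not read as an effect of RNA quality.

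Of the 10 members, 5 were above background on all 9 arrays (Keap1, Gclm, Txnrd1, Gsr and Gpx4), 3 on some of them (Gclc on 6, Srxn1 on 5 and Hmox1 on 1) and 2 on 0 of 9 (Nfe2l2 and Nqo1). Across the 3 comparisons 4 members passed the test at an adjusted p under 0.05 at least once: Txnrd1, Gclc, Gclm and Gsr. Their calls differed. Txnrd1 was called lower in subcutaneous samples than in both other groups, Gclc and Gclm rose in lung relative to subcutaneous samples, and Gsr was higher in subcutaneous than in dish samples. By group mean, Txnrd1, Gclc and Gclm were all lowest in subcutaneous samples, and Gsr was highest there. Whether the patterns of Txnrd1, Gclc and Gclm differ was not tested.

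**Figure D1:**
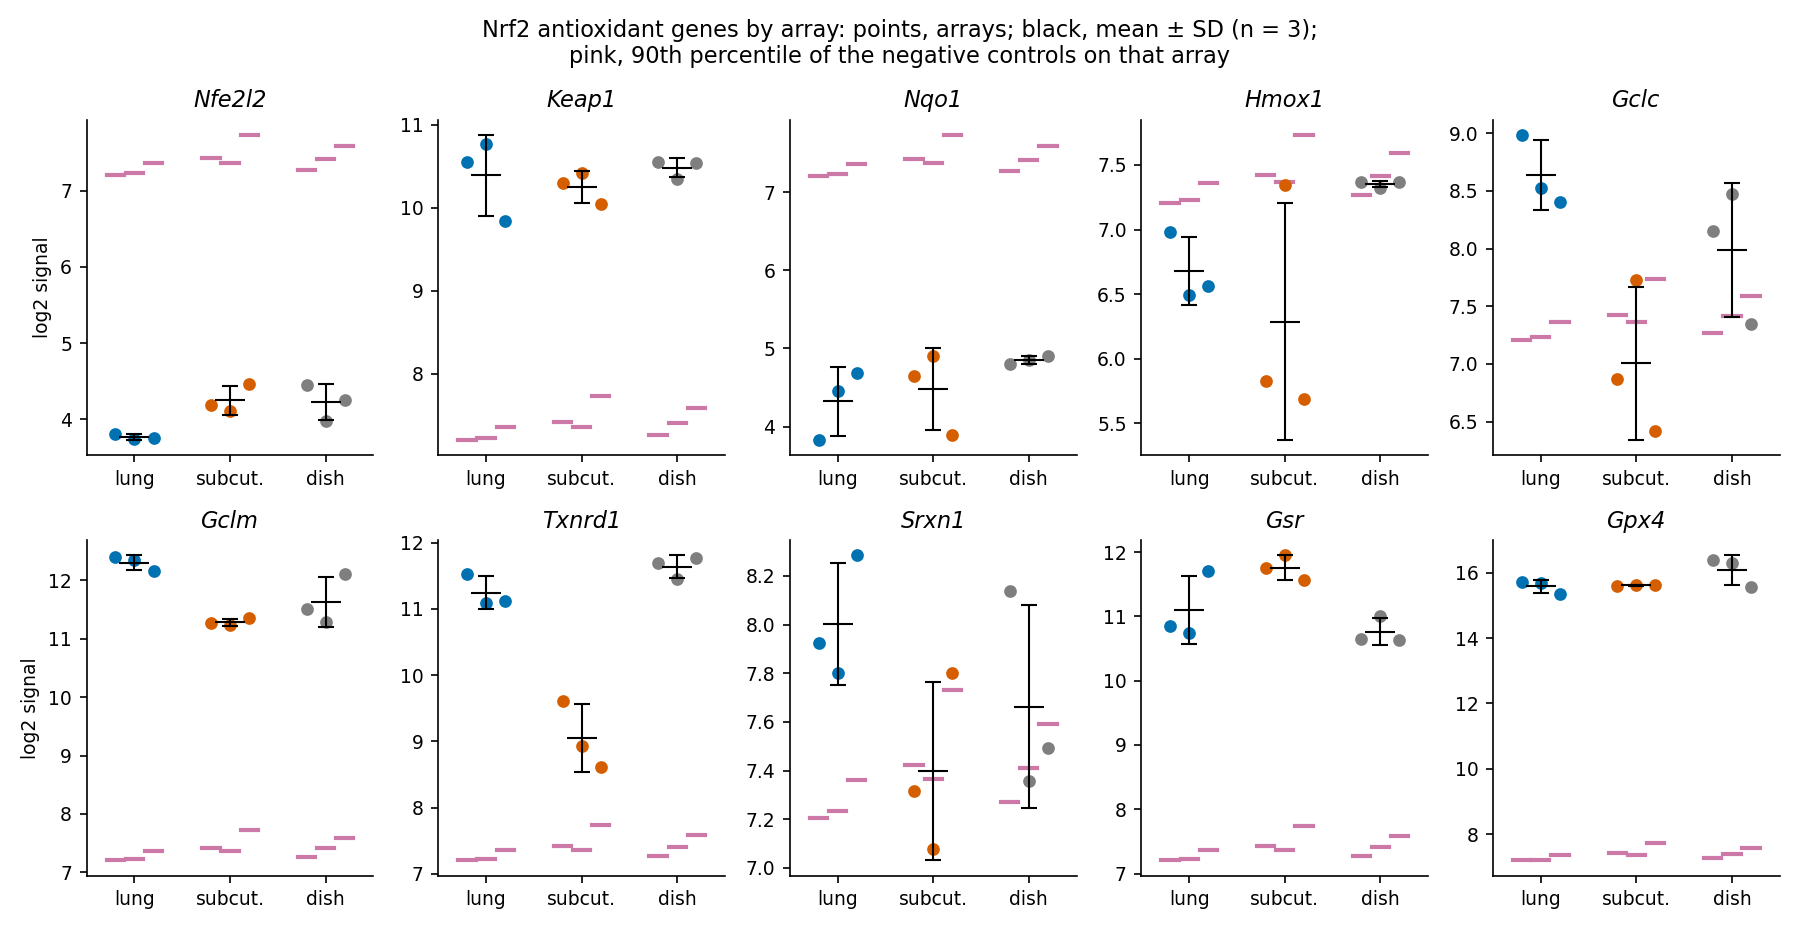
Log2 signal of each of the 10 genes on each array, with lung, subcutaneous and dish samples from left to right, the mean ± SD of 3 arrays in black and the 90th percentile of that array's negative controls in pink; each panel has its own axis. Txnrd1 lies at 8.61 to 9.61 on the subcutaneous arrays and at 11.09 or above on the other 6, while Nfe2l2 and Nqo1 lie under the pink marks on all 9.

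Of the factor and its sensor, only Keap1, the adaptor that targets Nrf2 for degradation, gave a measurable signal. Keap1 stood at 10.56, 10.77 and 9.84 in the lung samples, at 10.30, 10.41 and 10.04 in the subcutaneous samples and at 10.55, 10.35 and 10.54 in the dish cultures. The 3 groups overlapped in every pairing, and lung replicate 3 was the lowest of the 9 arrays. The lung minus subcutaneous difference of Keap1 was 0.14 with a 95% interval of -0.44 to 0.72 (limma adjusted p = 0.780), lung minus dish was -0.09 (-0.67 to 0.49, adjusted p = 0.886) and subcutaneous minus dish was -0.23 (-0.81 to 0.35, adjusted p = 0.655). The intervals are too wide to show equal levels.

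Nfe2l2, the factor itself, read 3.81, 3.74 and 3.75 in the lung samples, 4.18, 4.10 and 4.46 in the subcutaneous samples and 4.44, 3.98 and 4.25 in the dish cultures. All 9 values lay more than 2 log2 units under the background guide, with the 3 lung values the lowest, so no fold change is given. Nqo1, a quinone reductase often used as the marker of Nrf2 activity, read 3.83, 4.46 and 4.68 in the lung samples, 4.65, 4.90 and 3.89 in the subcutaneous samples and 4.8, 4.85 and 4.90 in the dish cultures. Its values too were under background on every array, and the transplanted groups overlapped with each other. A signal under the background guide sets no level for either transcript.

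Hmox1, the inducible heme oxygenase that releases iron, carbon monoxide and biliverdin from heme, was close to background. It read 6.98, 6.49 and 6.56 in the lung samples, 5.83, 7.34 and 5.69 in the subcutaneous samples, and 7.36, 7.32 and 7.37 in the dish cultures, where 1 of 3 arrays was above background. The dish values were tightly grouped (SD 0.02, n = 3) and above all 3 lung values, while subcutaneous replicate 2 reached the dish values and the other subcutaneous replicates stood well under them. Neither comparison with the dish passed (adjusted p = 0.316 for lung and 0.0797 for subcutaneous samples, limma). The dish mean, 7.35, was itself under the mean background guide of the dish arrays, 7.42, so no excess over lung is given. Without subcutaneous replicate 2 the adjusted p was 0.00269 for subcutaneous against dish and 0.0394 for lung against subcutaneous samples, but both transplanted groups were under background on every array, so no fold change is given and neither is read as a change.

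Glutathione is made from cysteine by glutamate-cysteine ligase, whose catalytic subunit is Gclc and whose modifier subunit is Gclm, and both genes rose in lung relative to subcutaneous samples. Gclc read 8.99, 8.52 and 8.40 in the lung samples, 6.87, 7.73 and 6.42 in the subcutaneous samples and 8.15, 8.47 and 7.35 in the dish cultures. Every lung value was above every subcutaneous value, and the dish values spanned the gap between them. The mean was 8.64 ± 0.31 in lung against 7.01 ± 0.66 in subcutaneous samples (SD, n = 3 each), which is 1.63 log2 units (standard error 0.36, limma adjusted p = 0.00939), or 3.10-fold. Gclc was above background on 1 of the 3 subcutaneous arrays, so on the other 2 that difference rests on background. In bulk samples, fewer cells of a type and less RNA per cell cannot be told apart.

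Gclm read 12.39, 12.35 and 12.16 in the lung samples, 11.27, 11.23 and 11.35 in the subcutaneous samples and 11.50, 11.28 and 12.10 in the dish cultures. The 3 lung values were the highest of the 9 arrays, although dish replicate 3 came close to them. The mean was 12.30 ± 0.12 in lung against 11.28 ± 0.06 in subcutaneous samples, a difference of 1.02 with a standard error of 0.25 (limma adjusted p = 0.0161), or 2.03-fold. Against dish cultures the lung samples did not pass for either subunit (0.65 for Gclc, adjusted p = 0.326, and 0.67 for Gclm, adjusted p = 0.133), nor did the subcutaneous samples (-0.98 for Gclc, adjusted p = 0.0994, and -0.35 for Gclm, adjusted p = 0.437). The lung against subcutaneous calls of both genes were lost without lung replicate 1 (adjusted p = 0.0513 for Gclc and 0.0697 for Gclm) and with the very long mRNA level as a covariate (adjusted p = 0.193 and 0.151), and that of Gclm also without lung replicate 2 (adjusted p = 0.0538) or with equal upper quartiles (0.71, adjusted p = 0.0810). Gclc, in turn, passed as lower in subcutaneous than in dish samples without subcutaneous replicate 2 (-1.34, adjusted p = 0.0320) or dish replicate 3 (-1.31, adjusted p = 0.0479).

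Txnrd1, the selenoenzyme that reduces cytosolic thioredoxin with NADPH, showed the largest differences of the 10. It read 11.53, 11.09 and 11.12 in the lung samples, 9.61, 8.93 and 8.61 in the subcutaneous samples and 11.69, 11.44 and 11.77 in the dish cultures. The subcutaneous values were the lowest 3 of the 9 and stood apart from all others, while 1 lung value lay within the dish range. In lung samples the mean was 11.25 ± 0.25 against 9.05 ± 0.51 in subcutaneous samples (SD, n = 3 each), a rise of 2.20 with a standard error of 0.28 (limma adjusted p = 0.000401), or 4.58-fold. In subcutaneous samples Txnrd1 fell relative to dish cultures (11.64 ± 0.17), by 2.59 on the log2 scale (standard error 0.28, limma adjusted p = 7.81e-05), or 6.0-fold. Lung and dish samples differed by -0.39 (95% interval -1.0 to 0.22, limma adjusted p = 0.455). Both calls held under each of the 19 alternatives tried, with differences of 1.89 to 2.48 for lung against subcutaneous and -2.87 to -2.23 for subcutaneous against dish samples. The comparisons with the dish share its 3 arrays, and those with the subcutaneous group share that group's.

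The start-site regions of these members bear on the pathway directly, since the antioxidant response element is a DNA motif. RefSeq promoter windows (GRCm38.p6, 250 bases before to 50 after a start) were at hand for 7 of the 10 genes, in 12 windows. The core TGACNNNGC, searched on both strands, was found in 4 of the 12 windows, those of Nfe2l2, Srxn1, Gclm and 1 of the 3 of Txnrd1, against 12.4% of all 32851 windows. The tighter TGANTCAGC was found in 1 of the 12, that of Srxn1, against 1.19% of all windows, and a run can match both motifs. The windows of Txnrd1 and Gclm are shown because these genes were called, and that of Srxn1 because it holds the tighter match and was not called. Sequences read 5′ to 3′ on the gene's strand, and capitals mark the matches.
Txnrd1 (chr10:82858956-82859255, + strand): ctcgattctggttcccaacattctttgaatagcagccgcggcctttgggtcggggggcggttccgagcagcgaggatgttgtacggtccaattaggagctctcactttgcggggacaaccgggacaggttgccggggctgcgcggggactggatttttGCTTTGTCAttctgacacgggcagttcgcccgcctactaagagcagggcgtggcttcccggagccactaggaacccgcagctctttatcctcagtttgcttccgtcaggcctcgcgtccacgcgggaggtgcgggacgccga
Gclm (chr3:122245307-122245606, + strand): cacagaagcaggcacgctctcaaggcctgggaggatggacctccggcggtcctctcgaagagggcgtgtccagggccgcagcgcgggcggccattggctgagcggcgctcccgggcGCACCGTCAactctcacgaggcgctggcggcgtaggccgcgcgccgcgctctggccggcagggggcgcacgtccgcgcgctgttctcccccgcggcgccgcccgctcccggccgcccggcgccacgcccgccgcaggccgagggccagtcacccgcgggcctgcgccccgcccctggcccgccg
Srxn1 (chr2:152105274-152105573, + strand): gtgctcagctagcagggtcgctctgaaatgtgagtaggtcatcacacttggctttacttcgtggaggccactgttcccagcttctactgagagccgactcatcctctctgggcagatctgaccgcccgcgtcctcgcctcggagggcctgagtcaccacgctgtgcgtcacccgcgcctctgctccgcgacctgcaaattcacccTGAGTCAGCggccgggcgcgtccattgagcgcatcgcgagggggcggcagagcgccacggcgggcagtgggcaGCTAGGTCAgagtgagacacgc
The match begins 92 bases before the start in Txnrd1 and 134 before it in Gclm, on the opposite strand in both. In Srxn1 the tighter match begins 45 bases before the start and a core match on the opposite strand lies just after it. A match is a run of letters and no evidence of binding.

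Among the other thiol and peroxide enzymes, Srxn1, sulfiredoxin, which repairs over-oxidised peroxiredoxins, read 7.92, 7.80 and 8.28 in the lung samples, 7.31, 7.08 and 7.80 in the subcutaneous samples and 8.14, 7.36 and 7.49 in the dish cultures. The lowest lung value and the highest subcutaneous value of Srxn1 are the same to 2 decimals, and the gene was above background on 3, 1 and 1 arrays of the 3 groups. Its lung minus subcutaneous difference was 0.60 (95% interval -0.01 to 1.22, limma adjusted p = 0.179), lung minus dish was 0.34 (adjusted p = 0.532) and subcutaneous minus dish was -0.27 (adjusted p = 0.624).

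Gsr, glutathione reductase, the NADPH-dependent counterpart of Txnrd1 for glutathione, was higher in subcutaneous than in dish samples. It read 10.86, 10.74 and 11.71 in the lung samples, 11.75, 11.95 and 11.56 in the subcutaneous samples and 10.64, 11.01 and 10.64 in the dish cultures. All subcutaneous values were above all dish values, and lung replicate 3 stood with the subcutaneous samples while lung replicates 1 and 2 stood with the dish. Gsr rose to 11.75 ± 0.19 in subcutaneous samples, against 10.76 ± 0.21 in dish cultures (SD, n = 3 each), a difference of 0.99 with a standard error of 0.28 (limma adjusted p = 0.0352). This call was lost without subcutaneous replicate 1 or 2 (adjusted p = 0.0750 and 0.109) or dish replicate 1, 2 or 3 (0.0994, 0.0556 and 0.108), and with quantile normalization (0.0554), equal upper quartiles (0.0586), RIN as a covariate (0.107) or the replicate block (0.0509). Lung against subcutaneous samples did not pass (-0.65, adjusted p = 0.145) but did without lung replicate 3 (-0.96, adjusted p = 0.0275). Of the lung arrays, that one had the highest airway secretory mean and the lowest very long mRNA level (7.62). The part of either was not tested.

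Gpx4, the selenoenzyme that reduces lipid hydroperoxides and restrains ferroptosis, read 15.72, 15.68 and 15.34 in the lung samples, 15.59, 15.63 and 15.61 in the subcutaneous samples and 16.38, 16.30 and 15.56 in the dish cultures. Dish replicates 1 and 2 were above all transplanted samples, and dish replicate 3 was not. Gpx4 passed in no comparison: lung minus subcutaneous was -0.03 (95% interval -0.59 to 0.53, limma adjusted p = 0.953), lung minus dish -0.50 (-1.06 to 0.07, adjusted p = 0.293) and subcutaneous minus dish -0.47 (-1.03 to 0.10, adjusted p = 0.293).

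**Figure D2:**
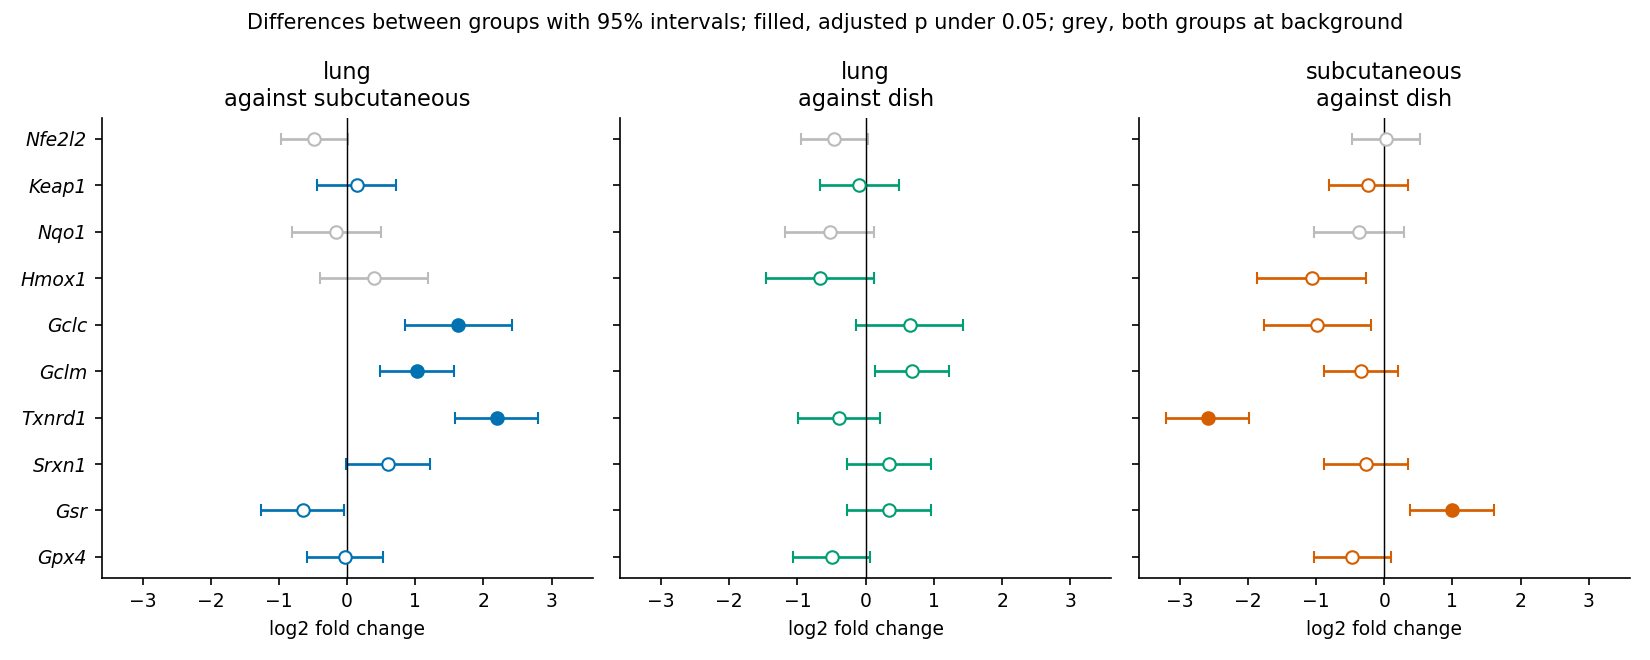
Log2 fold change of each gene in the 3 comparisons with its 95% interval from limma, filled where the adjusted p was under 0.05 and grey where both groups were at background. The filled points are Gclc, Gclm and Txnrd1 for lung against subcutaneous samples and Txnrd1 and Gsr, on opposite sides of 0, for subcutaneous against dish samples.

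Counted together, 3 of the 10 members rose in lung against subcutaneous samples and 0 fell, where 9.21% of all genes were called higher and 5.79% lower (15.0% in all). In lung against dish samples 0 of 10 were called by limma, 1 at an unadjusted p under 0.05 (Gclm), where 4.81% of all genes were called higher and 1.97% lower (6.78% in all); with array weights Gclm was called as well (0.78, adjusted p = 0.0323). In subcutaneous against dish samples 1 rose and 1 fell, where 6.41% of all genes were called higher and 6.47% lower (12.9% in all). The groups did not overlap for 5 members in lung against subcutaneous samples (32.5% of all genes), 4 in lung against dish (28.4%) and 2 in subcutaneous against dish samples (29.3%). Those counts include Nfe2l2 in lung against subcutaneous samples and Nfe2l2, Nqo1 and Hmox1 in lung against dish. The signals of these genes were near or under background, so the counts are not read as a separation of the members. The median log2 fold change of the members was 0.27, -0.24 and -0.36 in these comparisons, and that of all genes was -0.07, -0.07 and -0.01. The member medians count Nfe2l2, Nqo1 and Hmox1, whose signals were near or under background, so their signs are not read as a direction. The 6667 genes above background on at least 3 arrays had medians of 0.23, 0.17 and -0.05, so the lung medians depend on which genes are counted. Of these 6667 genes, fitted alone, 2646, 1530 and 2528 were called, larger shares than of all genes.

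A ratio of 2 genes on the same array does not move when a whole array is scaled. Txnrd1 minus Gsr was 0.68, 0.34 and -0.59 on the lung arrays, -2.14, -3.02 and -2.95 on the subcutaneous arrays and 1.05, 0.43 and 1.14 on the dish arrays. The 3 subcutaneous values were separate from the rest, by a mean of 2.85 from lung and of -3.58 from dish samples; an exact two-sided permutation test gave p = 0.100 for both, the smallest that 3 against 3 samples allow. Txnrd1 minus Gclm did not overlap between any 2 groups, with -1.05 ± 0.21 in lung, -2.23 ± 0.54 in subcutaneous and 0.01 ± 0.29 in dish samples (SD, n = 3; exact permutation p = 0.100 for each, again the smallest possible). With 3 against 3 samples this test cannot pass 0.05, and the genes are members already called above, so the ratios are a description and add no independent test. The 2 ligase subunits showed no such separation: Gclc minus Gclm was -3.66 ± 0.23, -4.28 ± 0.72 and -3.64 ± 1.0 in lung, subcutaneous and dish samples (exact permutation p = 0.300 for lung against subcutaneous).

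**Figure D3:**
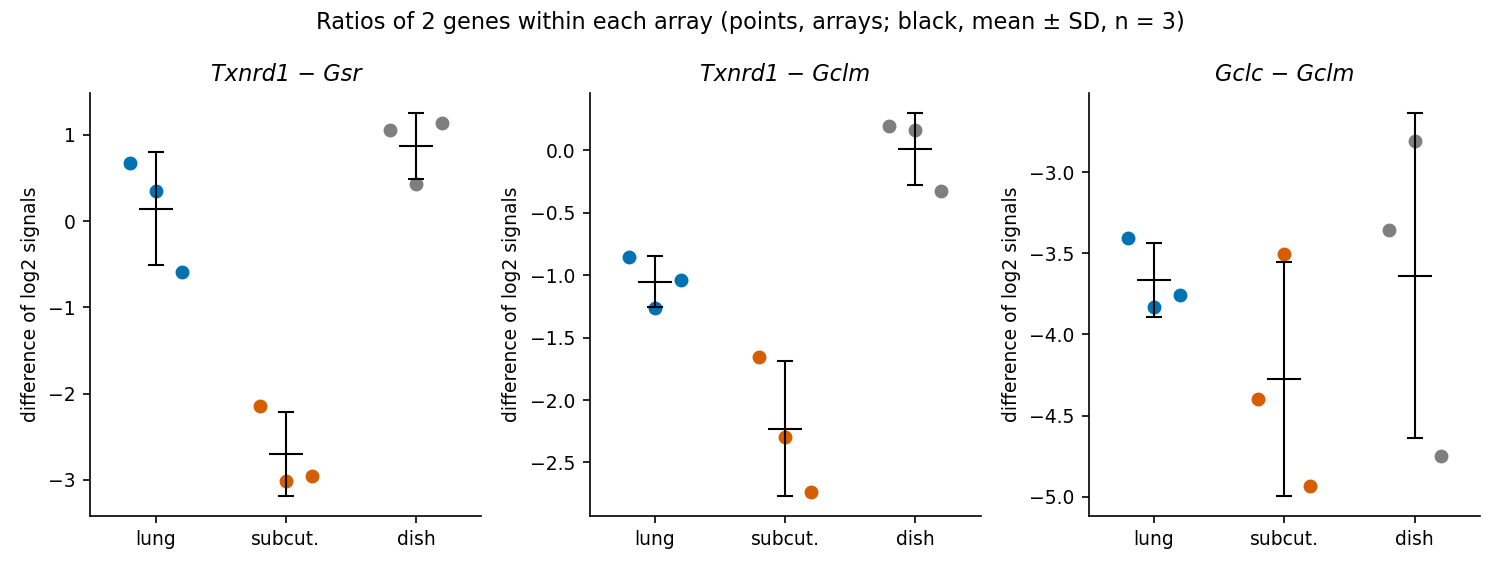
Difference of the log2 signals of 2 genes within each array, lung, subcutaneous and dish from left to right, with the mean ± SD of 3 arrays in black. For Txnrd1 minus Gsr the subcutaneous arrays lie between -3.02 and -2.14 and all others at -0.59 or above, while the groups overlap for Gclc minus Gclm.

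Among 6666 other genes above background on at least 3 arrays, the profile most like that of Txnrd1 over the 9 arrays, each centred on its own mean, was that of Emc1, a subunit of the ER membrane protein complex, with a root mean square distance of 0.19 log2 units. Phb, prohibitin (0.21), and Get4, which helps deliver tail-anchored proteins to the ER (0.24), came next. In lung, subcutaneous and dish samples Phb averaged 15.74 ± 0.17, 13.82 ± 0.33 and 16.07 ± 0.15 (SD, n = 3), so its subcutaneous values too were the lowest. Since Hmox1 and Nqo1 were near or under background, the genes closest to them in pattern match a signal that is mostly background; they were Mt2, Slc7a6os and Il17b for Hmox1 (0.27 each) and Skp2, Zfp938 and Trmt10c for Nqo1 (0.22 each).

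The rest of the pathway was read from 8 lists of regulators, partners and other antioxidant genes, with 85 of 93 genes measured. In lung against subcutaneous samples 11 of the 85 rose and 6 fell, in lung against dish 8 rose and 6 fell, and in subcutaneous against dish samples 13 rose and 10 fell. These are 20.0%, 16.5% and 27.1% of the 85 genes, where 15.0%, 6.78% and 12.9% of all genes were called. Pathway genes were more often above background than all genes (59 of the 85, against 6667 of 19505, on at least 3 arrays). With only those genes, 21, 18 and 24 of 59 were called, where 2646, 1530 and 2528 of 6667 genes were. Among these brighter genes the pathway share was under that of the 6667 genes for lung against subcutaneous samples. It stayed above that share for lung against dish and, by little, for subcutaneous against dish samples. The excess for lung against subcutaneous samples thus depended on which genes were counted. The single lists that follow are small, and their counts are given as a description beside those shares. The medians of the 85 genes were 0.06, 0.09 and 0.01. Of the calls among the 85 genes, 1, 1 and 4 were between groups both under background. Calls that stood whichever of the 9 arrays was left out numbered 10 of 17, 4 of 14 and 13 of 23.

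Of 12 genes that control or partner Nrf2, 2 rose and 0 fell in lung against subcutaneous samples (median 0.05), 1 rose and 1 fell in lung against dish (0.09) and 1 rose and 2 fell in subcutaneous against dish samples (-0.02). The autophagy receptor Sqstm1, which competes for Keap1, was lower in lung than in dish samples (-1.04, limma adjusted p = 0.0242), and Btrc, a ubiquitin ligase adaptor that targets Nrf2 apart from Keap1, was higher (1.29, adjusted p = 0.0241). Both lost that call in several fits with 1 array left out, Sqstm1 without any lung array or dish replicate 1 or 2 (adjusted p = 0.0528 to 0.0859) and Btrc without lung replicate 2 or 3 or dish replicate 2 or 3 (0.0663 to 0.103).

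In the list for glutathione supply and transfer, 2 of 16 rose and 1 fell in lung against subcutaneous samples, 1 rose and 2 fell in lung against dish, and 4 rose and 2 fell in subcutaneous against dish samples (medians 0.02, -0.21 and -0.05). Slc3a2, the heavy chain of the cystine transporter and of other amino acid transporters, read 13.46, 12.81 and 12.95 in subcutaneous samples against 15.25, 15.04 and 15.28 in dish cultures, and fell by 2.12 on the log2 scale (standard error 0.27, limma adjusted p = 0.000215). Slc3a2 was higher in lung than in subcutaneous samples (1.14, adjusted p = 0.0122), a call lost without lung replicate 1 (0.0681). The transporter's light chain, Slc7a11, was under background on all 9 arrays and gets no fold change, although both of its comparisons with the dish are among the calls counted. Gstp1, a glutathione transferase with a near-identical gene copy, so that its own value is uncertain, read 13.64, 13.98 and 13.88 in lung samples against 15.26, 15.56 and 15.37 in subcutaneous samples (-1.56, adjusted p = 0.000758). Ggct was the gene of this list that rose in lung against dish samples (1.84, limma adjusted p = 0.00430). That call stood whichever array was left out, but not with the very long mRNA covariate (0.241). Ggct also rose in lung against subcutaneous samples (1.32, adjusted p = 0.0130), a call lost without lung replicate 1 or subcutaneous replicate 3 (0.0718 and 0.0518).

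Among thioredoxin and peroxiredoxin genes 1 of 10 rose and 1 fell in lung against subcutaneous samples, as in lung against dish, and 0 rose and 2 fell in subcutaneous against dish samples (medians 0.27, -0.14 and 0.03). Txn1, the substrate of Txnrd1, averaged 18.34 ± 0.34, 18.42 ± 0.11 and 18.52 ± 0.25 in lung, subcutaneous and dish samples (SD, n = 3) and was not called. Txnip, the thioredoxin-binding protein that also restrains glucose uptake, was lower in lung than in subcutaneous samples (13.87 ± 0.56 against 15.85 ± 0.42, adjusted p = 0.00428 by limma). The mitochondrial thioredoxin Txn2 fell by 1.63 in subcutaneous relative to dish samples (adjusted p = 0.000838) and by 1.37 in lung relative to dish samples (adjusted p = 0.00644, and a difference of -0.90 with adjusted p = 0.477 under the very long mRNA covariate).

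Of 5 genes that supply NADPH, 2 rose and 1 fell in lung against subcutaneous samples, 0 were called in lung against dish by limma (0 also at an unadjusted p under 0.05) and 1 rose in subcutaneous against dish samples (medians -0.39, 0.43 and 0.36). The cytosolic isocitrate dehydrogenase Idh1 read 9.58, 10.57 and 10.79 in lung samples against 13.08, 12.91 and 12.36 in subcutaneous samples (-2.47, limma adjusted p = 0.000906). Pgd, of the pentose phosphate pathway, differed the other way, at 9.98, 10.21 and 10.48 in lung against 9.49, 8.24 and 8.79 in subcutaneous samples (1.38, adjusted p = 0.0104). Relative to dish cultures Idh1 rose by 3.03 in subcutaneous samples (adjusted p = 0.000145).

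The heme and iron list held the largest differences of the 8 lists in both comparisons with subcutaneous samples. Of its 7 genes, 1 rose and 2 fell in lung against subcutaneous samples, 0 rose and 1 fell in lung against dish and 2 rose and 1 fell in subcutaneous against dish samples (medians -0.15, 0.51 and 0.15). Blvrb, the biliverdin reductase downstream of heme oxygenase, read 9.37, 9.50 and 10.81 in lung samples, 12.79, 13.30 and 13.07 in subcutaneous samples and 9.63, 8.32 and 8.24 in dish cultures. It fell by 3.16 in lung relative to subcutaneous samples (limma adjusted p = 0.000501) and rose by 4.32 in subcutaneous relative to dish samples (adjusted p = 3.23e-05). The ferritin light chain Ftl1, an Nrf2 target whose processed copies make its value less certain, went the opposite way, at 15.35, 15.44 and 15.08 in lung, 13.51, 14.23 and 13.59 in subcutaneous and 16.24, 16.40 and 16.44 in dish samples. Ftl1 rose by 1.51 in lung relative to subcutaneous samples (adjusted p = 0.00191, and 1.18 with adjusted p = 0.0598 under the very long mRNA covariate) and fell by 2.58 in subcutaneous relative to dish samples (adjusted p = 3.34e-05).

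In the list on lipid peroxidation and ferroptosis 1 of 11 rose and 1 fell in lung against subcutaneous samples, 2 rose and 1 fell in lung against dish and 3 of each were called in subcutaneous against dish samples (medians 0.13, 0.09 and -0.11). The transferrin receptor Tfrc, which brings iron into the cell, read 7.42, 5.42 and 6.17 in subcutaneous samples, all under background, against 9.59, 9.26 and 9.05 in dish cultures, a fall of at least 1.79 (limma adjusted p = 0.000362). Gch1, which starts the synthesis of the antioxidant cofactor tetrahydrobiopterin, rose by 2.19 in subcutaneous relative to dish samples (adjusted p = 0.00302). Acsl4, which loads membranes with oxidisable fatty acids, was lower in lung than in subcutaneous samples (-1.46, adjusted p = 0.0109, and -1.54, adjusted p = 0.0800, with the very long mRNA covariate).

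Among 9 other peroxide and superoxide enzymes 1 rose and 0 fell in lung against subcutaneous samples, and 2 rose and 0 fell in each comparison with the dish (medians -0.09, 0.13 and -0.14). Catalase, Cat, averaged 11.85 ± 0.16 in lung and 11.94 ± 0.15 in subcutaneous samples against 10.61 ± 0.53 in dish cultures (SD, n = 3; limma adjusted p = 0.0187 and 0.00661). The lung against dish call of Cat was lost without lung replicate 1 or 2 or dish replicate 2 (adjusted p = 0.0506, 0.0577 and 0.0842). In the list on quinone, carbonyl and xenobiotic handling 1 of 15 rose in lung against subcutaneous samples, the exporter Abcc4 (8.02 against 6.59, at least 0.51, adjusted p = 0.00567), 1 rose in lung against dish, the reductase Ptgr1 (1.10, adjusted p = 0.0253, lost without lung replicate 1 or 3 or any dish array, 0.0591 to 0.0876), and by limma 0 were called in subcutaneous against dish samples, 3 at an unadjusted p under 0.05.

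**Figure D4:**
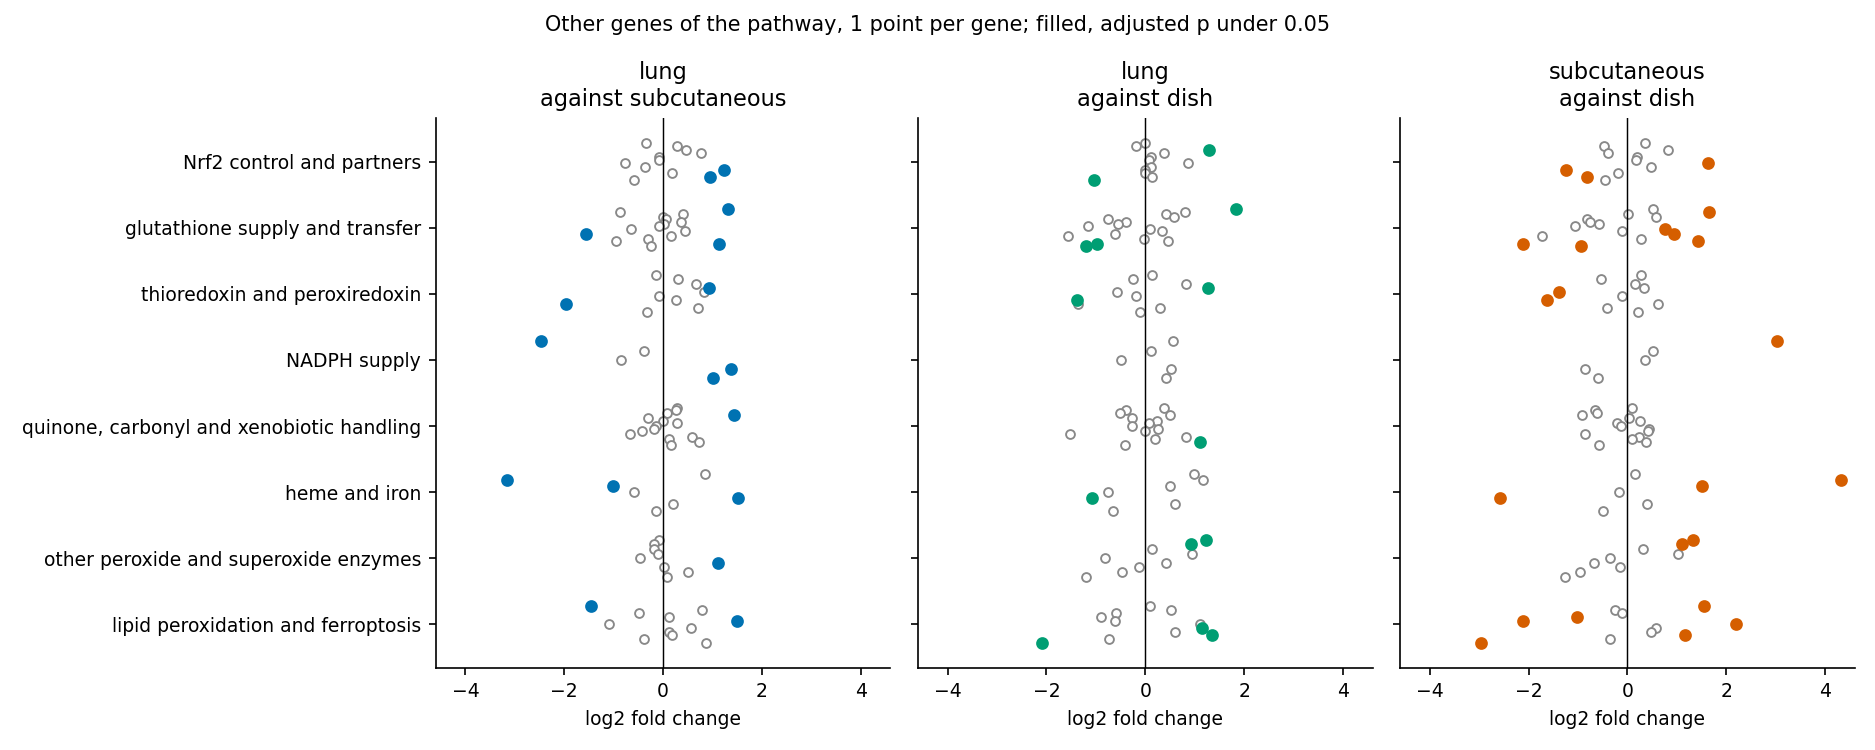
Log2 fold change of each of the 85 other genes by list in the 3 comparisons, filled where the adjusted p was under 0.05. Filled points stand on both sides of 0 in most lists; the farthest is Blvrb at 4.32 for subcutaneous against dish samples.

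Other measures moved with the same groups as these results. The subcutaneous samples, in which Txnrd1 was low, had the highest fibroblast marker mean, carried by Lum, Dcn and Dpt with the collagen genes under background. They also had the highest bacterial hybridization controls (12.73 to 12.96, against 11.86 to 12.16 in dish samples and 10.95 to 11.58 in lung samples). The part of these 2 measures in the result was not tested. In lung samples Gclc and Gclm were higher than in subcutaneous samples but were not called against dish cultures. The lung samples had the highest alveolar marker and very long mRNA means. Of the lung arrays, replicate 3 had the most airway signal and the lowest very long mRNA level. Without it, the lung minus subcutaneous difference was 1.75 for Gclc, 1.09 for Gclm and 2.26 for Txnrd1. The part of the airway signal in these differences was not tested. With the very long mRNA level as a covariate the Gclc and Gclm calls were lost (limma adjusted p = 0.193 and 0.151). The Txnrd1 call held. Since that level moved with the groups, this fit cannot tell its part from theirs. The alveolar signal was high on all 3 lung arrays, with the surfactant gene Sftpc at 15.59, 13.45 and 16.37, and its part in these differences was not tested.

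**Figure D5:**
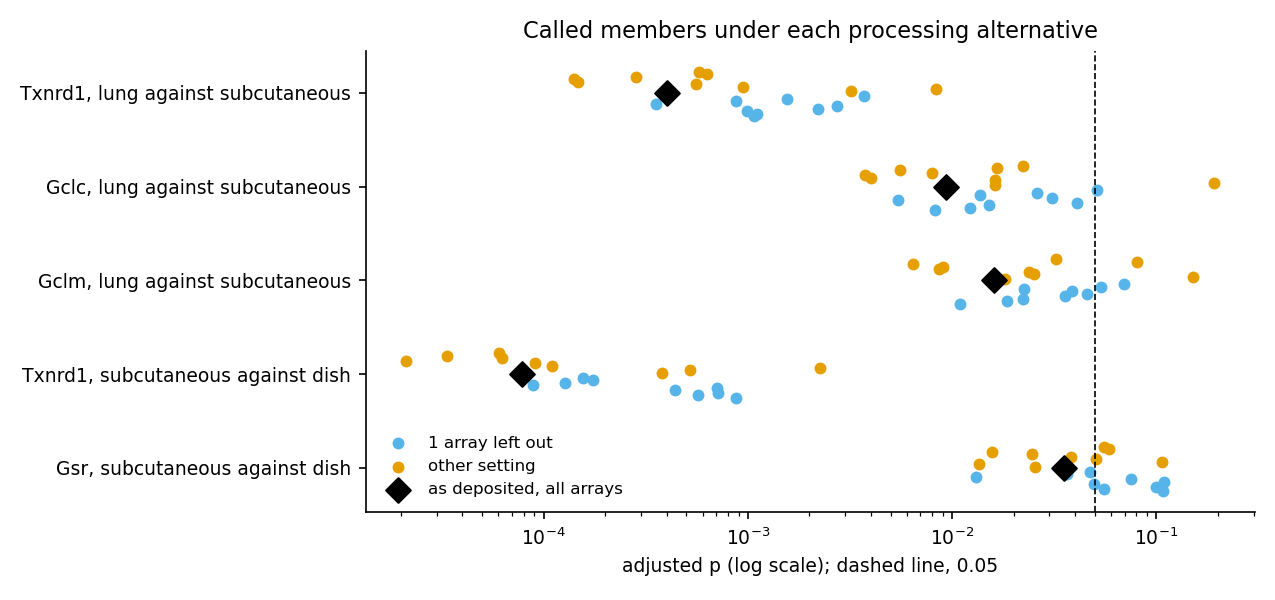
Adjusted p (log axis) of the 5 calls among the members with all arrays as deposited (diamond), with 1 array left out (blue) and under each other setting (orange), the dashed line being 0.05. Both Txnrd1 calls stay at 0.00833 or under, Gclc and Gclm cross the line in 2 and 4 settings, and Gsr in 9.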

How the data were processed

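The deposited values are log2 signals in a table of 28846 rows for the 9 arrays; how they were normalized, with which software and on which build is not given in the sources used here. Per the labels' protocols, total RNA was column-purified and sense-strand cDNA was labelled with biotin. The values were used as deposited (array medians 5.26 to 5.43). Of the rows, 22206 were gene features and 5222 negative controls; 19572 features had 1 gene symbol and 2634 had none here, all 19572 symbols were found in a RefSeq gene table (GRCm38.p6) and 0 changed. For 55 genes with several features the one with the highest mean was kept, which left 19505 genes, with no filter on level.

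A single limma model (version 3.58.1, R 4.3.3) held the 3 group means over the 9 arrays and moderated variances by eBayes without a trend (6 residual and 7.08 prior degrees of freedom). Tests were two-sided and p-values were adjusted by the Benjamini-Hochberg method across all 19505 genes. "Rose", "fell" and "called" mean an adjusted p under 0.05. A gene under the background guide on all 3 arrays of 1 group is given as a bound, the brighter mean minus the mean of the guide on the dimmer group's arrays (or of the gene's own signal where higher), and gets no fold change where both groups are under it. No bound is given for Hmox1, whose dish mean lay under the mean dish guide. On simulated data the fit recovered 11% of genes changed by 1 log2 unit and 76% of those changed by 2 between lung and subcutaneous samples. These shares were 20% and 80% between lung and dish, and 21% and 82% between subcutaneous and dish samples. The simulation changed 200 genes and gave 93 to 109 calls, against 1322 to 2927 in the data. Its adjusted threshold was therefore stricter, and the recovery in the data was not measured. A gene that did not pass may still differ by 1 log2 unit. Within-array ratios were tested by exact permutation with scipy 1.17.1.

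The 10 members and the lists were chosen with earlier results of these data known. The text names all members, and of each pathway list genes with the largest called rise or fall in a comparison, with Slc7a11 and Txn1 added after their values were seen, and the 3 genes closest in profile to Txnrd1, Hmox1 and Nqo1. Alternatives were quantile normalization, equal upper quartiles, a filter on dim genes, an intensity trend, array weights, a replicate block, RIN or the very long mRNA level as a covariate, only the 2 groups compared, the lowest feature per gene, and each array left out. The number of arrays limits the precision.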

Additional observations from a re-analysis of the deposited data

How the results depend on the processing

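Both Txnrd1 calls kept direction and significance under all 19 alternatives. Equal upper quartiles moved the median of all genes to -0.38 for lung against subcutaneous and -0.41 for lung against dish. The share of calls that were higher went to 27.7% (61.4% as deposited) and 24.0% (71.0%). This setting shifts each array by 1 constant, and the upper quartile averaged 8.64 on lung, 8.33 on subcutaneous and 8.30 on dish arrays. All genes therefore moved down in lung by the same amount, Gclm to 0.71 and Srxn1 to 0.30 against subcutaneous samples. A gene's place relative to the median could not change. Quantile normalization gave 54.8% higher for lung against dish. Why the upper quartiles differed, and the cause of the change with quantile normalization, were not tested.

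With the very long mRNA covariate the calls for lung against subcutaneous were 1112 of all genes, 1 member (Txnrd1) and 9 pathway genes, and for lung against dish 117 of all genes and 0 pathway genes by limma (25 at an unadjusted p under 0.05). For lung against dish, equal upper quartiles gave 2352 calls, array weights 3039 with 1 member and 24 pathway genes, and RIN as a covariate 856 with 9 pathway genes. For subcutaneous against dish, RIN gave 1280 calls, 1 member and 12 pathway genes, and quantile normalization and equal upper quartiles 1 member each, Txnrd1. With 1 array left out, calls over all genes ran from 1476 to 2928 for lung against subcutaneous (1476 without lung replicate 1 and 1938 without lung replicate 2), from 514 to 1442 for lung against dish (591 and 765 without lung replicate 1 and 2, 514 and 667 without dish replicate 2 and 3) and from 1639 to 2738 for subcutaneous against dish (1639 without dish replicate 2). Members called ran from 1 to 4, from 0 to 0 and from 1 to 3, and pathway genes from 10 to 19, from 5 to 18 and from 15 to 24. For pathway genes the low counts came without lung replicate 1 (10), without lung replicate 1 or 2 or dish replicate 2 or 3 (6, 7, 5 and 9), and without subcutaneous replicate 2 or dish replicate 2 (15 each). The filter on dim genes gave no value for Nfe2l2, Nqo1 and Hmox1.

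Same-numbered arrays of different groups did not deviate together (Pearson's r across genes of deviations from group means -0.06 to 0.09 in 9 pairs), so replicate numbers were not taken to pair samples. The replicate block moved the counts over all genes to 2852, 1313 and 2475; 2 of 9 arrays correlated best with their own number in both other groups. Under it Gsr lost its call in subcutaneous against dish samples (adjusted p = 0.0509) and Gclc gained one (-0.98, adjusted p = 0.0481).

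Member values kept direction and side of the threshold in 518 cases, and in 18 cases an uncalled value changed sign. Those of Nfe2l2, Nqo1 and Hmox1 are fitted values between groups under or near background, given only as a record of the sign and not as fold changes. For lung against subcutaneous these were Keap1 (-0.076 with quantile normalization, -0.17 with equal upper quartiles, -0.40 with the long mRNA covariate, -0.053 without lung replicate 2 and up to 0.41 with other arrays left out), Nqo1 (0.0033 with quantile normalization, 0.0088 with that covariate, 0.091 without lung replicate 1, 0.06 without subcutaneous replicate 2 and down to -0.45 with other arrays left out), Hmox1 (-0.048 with the covariate) and Gpx4 (0.031 with quantile normalization, 0.045 with array weights, 0.089 without lung replicate 3 and down to -0.10 with other arrays left out). For lung against dish they were Keap1 (0.053 with array weights, 0.18 without lung replicate 3 and down to -0.29 with other arrays left out) and Gclc (-0.057 with the covariate), and for subcutaneous against dish Nfe2l2 (-0.0085 with equal upper quartiles, -0.08 without subcutaneous replicate 3, -0.10 without dish replicate 2 and up to 0.13 with other arrays left out). Gsr (-0.96, adjusted p = 0.0423) passed for lung against subcutaneous with equal upper quartiles and with array weights (-0.82, adjusted p = 0.0438). For the same comparison Nfe2l2 had an adjusted p of 0.0392 with equal upper quartiles, between groups both under background, so it is not read as a change.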
